A study of Saccharomyces cerevisiae with 4 samples.

Results

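The 9 subunit genes of oligosaccharyltransferase in budding yeast, STT3, OST4, OST3, OST6, OST1, OST5, OST2, SWP1 and WBP1, were followed through polysomal and sub-polysomal RNA of cells with and without dithiothreitol (DTT). A probe set, the group of oligonucleotides that reads 1 transcript on an Affymetrix array, was taken when the probe-to-gene table gave it 1 of these symbols alone. Each gene had 1 such probe set, so 9 of the 9335 probe sets on the array were used, and no probe set paired a subunit gene with another gene. All 9 belong to the 3923 genes that were measured on every array, where measured means above a floor set for each array at its 40th percentile.

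Cells of strain BY4741, a haploid of mating type a that carries his3Δ1, leu2Δ0, ura3Δ0 and, as the label spells it, met5Δ0, were grown in rich medium at 30 °C. At an OD600 of 0.5 they were given 2 mM DTT or, as control, the same volume of water, and were kept for a further 1 h. Ribosomes were then held on their transcripts with cycloheximide (0.1 mg/mL), and lysates were separated on sucrose gradients from 15 to 60%. Gradient fractions were joined into sub-polysomal RNA and polysomal RNA, and RNA of 3 extracts per treatment was pooled. The 2 treatments and 2 fractions make 4 groups with 1 array each, so no difference could be tested against replicates and no p-value was computed. Lysis and gradient buffers contained 0.5 mM DTT for both treatments. The gradient separates transcripts by the ribosomes they carry and does not say in which order or how fast those ribosomes move.

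Oligosaccharyltransferase sits in the membrane of the endoplasmic reticulum (ER) beside the protein-conducting channel. It moves a preassembled sugar chain from a dolichol lipid onto asparagine residues of proteins as they enter the lumen. In yeast the complex is built from 3 parts: Stt3 with Ost4 and either Ost3 or Ost6, Ost1 with Ost5, and Ost2 with Swp1 and Wbp1. Stt3 carries the catalytic site, and Ost3 and Ost6 are alternative subunits with a thioredoxin-like lumenal domain that can form disulphides with client proteins. DTT reduces disulphide bonds, unfolds proteins in the ER and sets off the unfolded protein response, in which the kinase Ire1 splices HAC1 messenger RNA and the Hac1 transcription factor raises many ER genes.

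The strain and treatment were checked first. All 6 genes specific to mating type a were above the floor on all 4 arrays, while of 4 genes specific to the opposite type MF(ALPHA)2 and STE3 were above it on 0 arrays, MF(ALPHA)1 on 1 array and SAG1 on 4 arrays. URA3 read 0.3 to 1.2, LEU2 3.23 to 11.9 and MET17 0.4 to 7.1, below every floor. HIS3, of which his3Δ1 removes only a part, read 100.1 to 130.5, and MET5, the gene the label names as deleted, read 96.7 to 184.5. MET17 is also named MET15, the gene that BY4741 is commonly described as lacking, so the label's met5 may be a misspelling. The ER chaperone gene KAR2 read 1017.8 and 1321.2 in control sub-polysomal and polysomal RNA and 2068.2 and 2286.5 with DTT. The control sub-polysomal array stood apart: its rank correlations with the others were 0.885 to 0.920, against 0.922 to 0.959 among the rest. The 3′ probe set of actin read 2.49 times the 5′ probe set on that array, 1.91 times in DTT sub-polysomal RNA, and 1.52 and 1.48 times in control and DTT polysomal RNA. This sign of RNA quality moves with the fraction, and its part in any ratio of polysomal to sub-polysomal RNA was not tested. Only the DTT effect in polysomal RNA and the ratio within DTT-treated cells make no use of the array that stood apart.

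Intensities are given as deposited, and differences as log2 values after the measured probe sets of every array were set to a median of 0. Every difference is thus relative to the other transcripts in the same RNA sample: more copies of a transcript and fewer copies of the rest cannot be told apart. Where several probe sets read 1 gene their values differ, and over 161 such genes the pooled SD of this difference (log2) was 0.45 for the DTT effect in the sub-polysomal fraction and 0.41 for that in the polysomal fraction. It was 0.41 and 0.32 for the ratio of the fractions without and with DTT, and 0.43 for the difference of the ratios. This probe-set SD is a technical yardstick and covers no difference between cultures.

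STT3 (YGL022W), the catalytic subunit, read 165.6 in control sub-polysomal, 260.6 in control polysomal, 239.0 in DTT sub-polysomal and 359.6 in DTT polysomal RNA. Polysomal RNA was the brighter fraction in both treatments, and DTT was brighter than control in both fractions. The DTT effect was 0.43 in each fraction (1.34-fold and 1.35-fold), and the polysomal to sub-polysomal ratio was 0.82 in control and 0.83 in treated cells. The ratio of STT3 thus differed by 0.01 between treatments, far less than the probe-set SD.

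OST4 (YDL232W) encodes a very small membrane protein that holds Ost3 or Ost6 to Stt3. It read 2255.1 in control sub-polysomal and 440.0 in control polysomal RNA, and 1084.6 and 364.9 in the same fractions with DTT. Both sub-polysomal arrays were well above both polysomal arrays, the opposite of STT3. Its polysomal to sub-polysomal ratio was -2.19 in control cells, 4.56-fold lower in polysomal RNA and at rank 5 from the lowest of 3923 genes. With DTT the ratio was -1.33, 2.51-fold lower. The DTT effect was -1.16 in sub-polysomal RNA (2.23-fold lower) and -0.30 in polysomal RNA. The former fell short of 2-fold with no floor and under quantile and loess scaling (down to -0.62).

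The paralogues OST3 and OST6 encode the interchangeable subunits of the complex. OST3 (YOR085W) read 233.4 and 336.1 in control sub-polysomal and polysomal RNA and 251.9 and 345.5 with DTT. OST6 (YML019W) read 92.4 and 135.6 in the control fractions and 199.8 and 155.4 with DTT. For OST3 the treated arrays lay beside their controls, whereas for OST6 both treated arrays lay above both controls and the brighter fraction changed sides (after centring, the treated ratio of -0.12 turned positive in 2 of 8 other settings). The DTT effect on OST3 was 0.01 in each fraction, with a sign that turned under quantile scaling in both. For OST6 it was 1.01, a 2.01-fold difference, in the sub-polysomal fraction and 0.17, a 1.12-fold difference, in the polysomal fraction. The sub-polysomal value of OST6 stood at the 2-fold limit and was 0.91 to 1.25 over 8 other settings, 3 of which left it short of 2-fold.

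OST1 (YJL002C) and OST5 (YGL226C-A) encode the pair that forms a part of the complex of its own. OST1, whose product is an essential glycoprotein, read 749.0 and 807.1 in control sub-polysomal and polysomal RNA and 575.9 and 526.6 with DTT. OST5, which encodes a small non-essential membrane protein, read 309.9 and 246.9 in the control fractions and 499.3 and 393.0 with DTT. The partners moved apart: both treated arrays lay below both controls for OST1 and above both for OST5. The DTT effect was -0.48 and -0.65 for OST1 in sub-polysomal and polysomal RNA, and 0.59 and 0.64 for OST5. As reported these 4 values each exceeded the probe-set spread. They kept their sign in all 8 other settings, and none reached 2-fold. The sub-polysomal value of OST1 was -0.55 to -0.24 over those settings, so several left it within the probe-set SD of 0.45. Its polysomal value was -0.404 when centred on hybridisation controls, just within the SD of 0.407 for that fraction. OST1 was the lowest of the 9 genes in polysomal RNA, and 16.2% of all measured genes were lower still. In sub-polysomal RNA 32.4% of all measured genes were lower than OST1.

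OST2, SWP1 and WBP1 encode essential subunits of the remaining part. WBP1 (YEL002C) read 177.2 and 397.2 in control sub-polysomal and polysomal RNA and 342.3 and 594.6 with DTT. SWP1 (YMR149W) read 819.9 and 904.6 in the control fractions and 842.7 and 955.5 with DTT. OST2 (YOR103C) read 64.4 and 49.2 in the control fractions and 76.3 and 83.8 with DTT, the nearest of the 9 genes to the floor at 2.28 times the floor of the control sub-polysomal array. WBP1 was brighter with DTT in both fractions, SWP1 was level, and for OST2 the polysomal array with DTT lay above its control. The DTT effect was 0.85 and 0.55 for WBP1 in sub-polysomal and polysomal RNA, -0.06 and 0.05 for SWP1, and 0.14 and 0.74 for OST2.

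**Figure D1:**
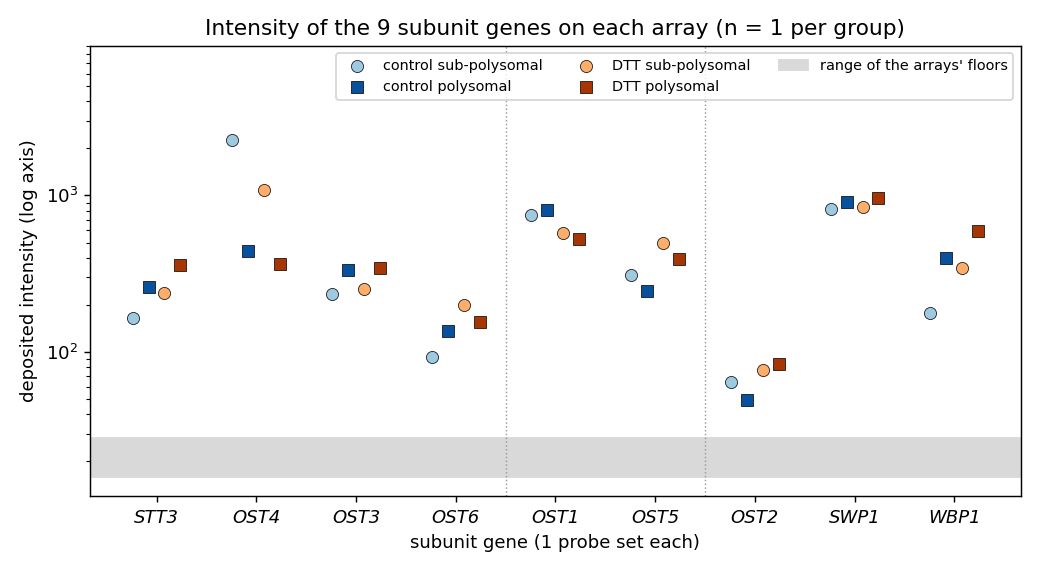
Deposited intensity (log axis) of the 9 subunit genes on the 4 arrays, 1 point per array, with dotted lines between the 3 parts of the complex and a grey band for the range of the arrays' floors. OST4 lies at 2255.1 and 1084.6 in sub-polysomal RNA and at 440.0 and 364.9 in polysomal RNA, while WBP1 and STT3 are brighter in polysomal RNA, and every point lies above the floors.

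Does DTT change the subunit transcripts together? In polysomal RNA 0 of the 9 genes were 2-fold higher and 0 were 2-fold lower with DTT, where 4.33% and 7.04% of all 3923 genes passed those limits. In sub-polysomal RNA 1 was 2-fold higher (OST6) and 1 was 2-fold lower (OST4), where the limits were passed by 5.68% and 11.1% of all genes. Counts of 0 or 1 in 9 do not set the complex apart from the background. The 9 genes had a median DTT effect of 0.14 (sub-polysomal) and 0.17 (polysomal), where all genes had -0.20 and -0.10, and 7 of 9 lay above the all-gene median in either fraction.

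Below the 2-fold limit the genes spread to both sides. In polysomal RNA OST2, OST5, WBP1 and STT3 exceeded the probe-set SD upward and OST1 downward, while OST4, OST3, SWP1 and OST6 lay within it. In sub-polysomal RNA OST6, WBP1 and OST5 exceeded it upward and OST4 and OST1 downward. As reported, WBP1 and OST5 are therefore the genes above this yardstick in both fractions, and OST1 is the gene below it in both. For OST1 in sub-polysomal RNA this did not hold in several other settings (up to -0.24). In polysomal RNA OST1 came to -0.404 when centred on hybridisation controls, just within the SD of 0.407. STT3 came to 0.33 there under quantile scaling, also within it. Of all measured genes 17.6% exceeded the yardstick upward in each fraction, and 34.3% and 28.9% downward in sub-polysomal and polysomal RNA. The SD over the 9 genes was 0.68 for the sub-polysomal and 0.46 for the polysomal effect, where it was 0.73 and 0.65 over all genes; the difference in spread was not tested. By part of the complex, the genes of Stt3, Ost4, Ost3 and Ost6 ran from -1.16 to 1.01 in sub-polysomal RNA, and those of Ost1 and Ost5 had opposite signs in both fractions. The genes of Ost2, Swp1 and Wbp1 all lay above 0 in polysomal RNA (0.05 to 0.74), a sign each kept in all 8 other settings. In sub-polysomal RNA they ran from -0.06 to 0.85, and the lowest of these, SWP1, turned positive in 5 of 8 settings.

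**Figure D2:**
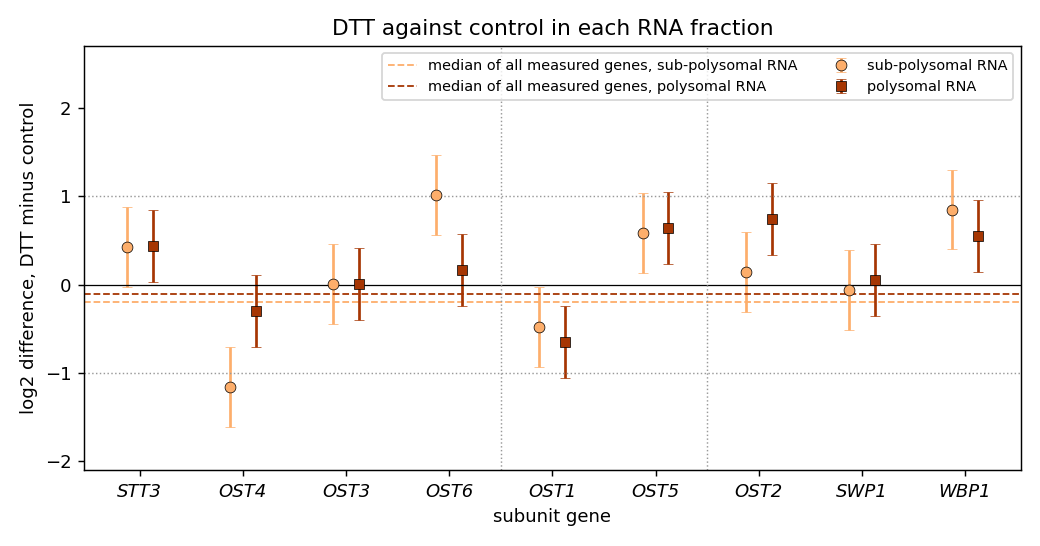
Log2 difference of DTT minus control for each subunit gene in sub-polysomal RNA (circles) and polysomal RNA (squares), with bars for 1 probe-set SD (0.45 and 0.41; not a replicate error). Dashed lines mark the all-gene medians of -0.20 and -0.10, and horizontal dotted lines mark 2-fold; OST6 and OST4 reach 2-fold in sub-polysomal RNA and no gene does in polysomal RNA.

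How were the subunit transcripts distributed over the gradient? In control cells 1 of 9 genes, WBP1, was 2-fold higher in polysomal RNA and 1, OST4, was 2-fold lower, where 7.11% and 6.50% of all genes passed the limits. In DTT-treated cells the same genes did so, 1 in each direction, against 4.79% and 3.80% of all genes. WBP1 had a ratio of 1.33 in control cells (2.52-fold) and 1.04 with DTT (2.05-fold), with 97.1% and 95.8% of measured genes below it. Its ratio was 0.90 under loess scaling in control cells, and with DTT 5 of 8 other settings brought it under 2-fold. OST4 stayed past 2-fold in all 8 settings in control cells and in 7 of 8 with DTT, the exception being centring on hybridisation controls (1.97-fold lower).

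The other 7 genes lay between these extremes. In control cells STT3, OST6 and OST3 had ratios of 0.82, 0.72 and 0.70, each above the probe-set SD, which 26.7% of all genes exceeded upward and 27.8% downward. SWP1 and OST1 followed at 0.31 and 0.28, and OST5 and OST2 stood at -0.16 and -0.22. Neighbours in this order differ by less than the probe-set SD, apart from WBP1 above STT3, OST5 below OST1 and OST4 below OST2. The median of the 9 was 0.31 in control and 0.38 in DTT-treated cells against all-gene medians of -0.03 and 0.08, but it turned to -0.08 and -0.03 under quantile scaling and to just below 0 under loess scaling, so no direction holds for the complex as a whole.

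The genes differ widely in length. The annotated span is 111 bases for OST4, which leaves 36 codons before the stop, 393 for OST2, 410 for OST5, whose span holds an intron, 861 for SWP1, 999 for OST6, 1053 for OST3, 1293 for WBP1, 1431 for OST1 and 2157 for STT3 (gene table of assembly R64). The 3 shortest genes had ratios below 0 in control cells and the 6 longest had ratios above 0. With DTT this split did not hold, with OST2 at 0.38 and OST6 at -0.12; the control ratio uses the array that stood apart and the DTT ratio does not. In control cells with no floor OST2 and OST5 turned positive, OST5 also when centred on hybridisation controls, and under quantile and loess scaling SWP1 and OST1 turned negative. Among all measured genes under 300 bases the median control ratio was -0.49 (117 genes, 20.5% of them 2-fold lower in polysomal RNA), and it was -0.004, 0.04 and -0.07 for 300 to under 750, 750 to under 1500 and 1500 or more bases. These classes follow the annotated span. Without its intron OST5 is shorter than 410 bases and may belong to a lower class. OST4 had rank 2 from the lowest among those 117 short genes in control cells and rank 3 with DTT. In DTT-treated cells the median of the short genes was -0.01. Over 3909 genes with a length the ratio hardly followed length (Spearman rho 0.016 in control cells and 0.026 with DTT, a description across genes that share the same arrays). The part of length in the ratio of OST4 was not tested.

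**Figure D3:**
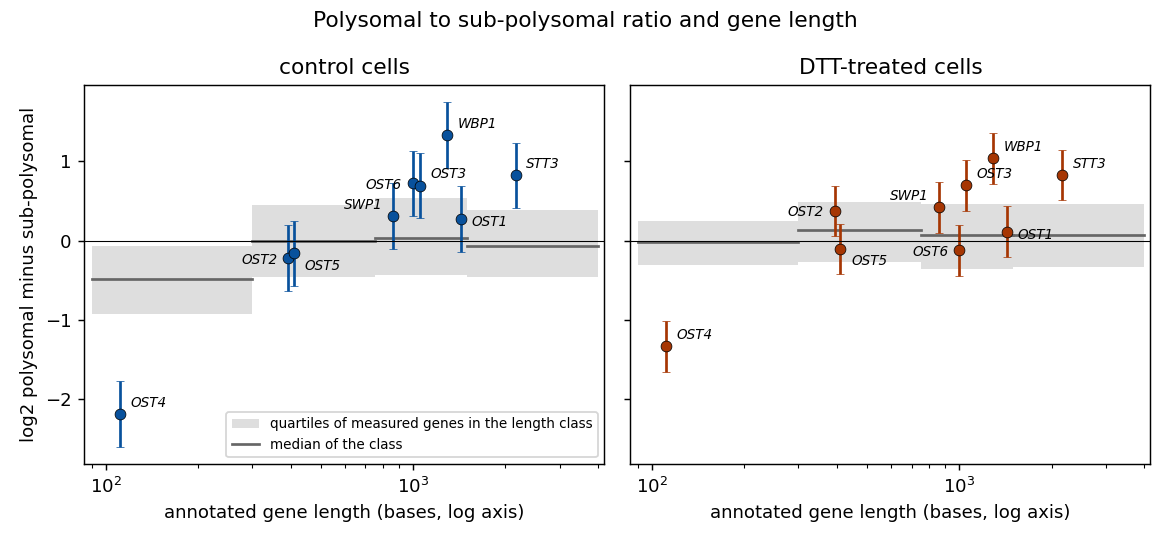
Polysomal to sub-polysomal ratio (log2) against annotated gene length in bases (log axis) for the 9 subunit genes in control cells (left) and DTT-treated cells (right), with bars for 1 probe-set SD. Grey bands and lines are the quartiles and median of all measured genes in 4 length classes; OST4 lies at -2.19 and -1.33, far under the band of its class, and WBP1 at 1.33 and 1.04 above its band.

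Did the distribution change with DTT? The difference of the ratios, DTT minus control, passed 2-fold upward in 0 of 9 genes and downward in 0, where 1.99% and 1.45% of all genes did. The median over the 9 genes was 0.01, against 0.08 over all genes. OST4 stood at 0.86 (96.1% of genes lower), OST2 at 0.59 and OST6 at -0.84 (3.39% of genes lower), the 3 genes beyond the probe-set SD of 0.43. Of all measured genes 21.5% lay beyond it upward and 14.5% downward. The remaining 6 lay between -0.30 (WBP1) and 0.11 (SWP1), with STT3 and OST3 within 0.01 of 0. The value of OST6 was -0.99 to -0.67 over the other settings, whereas that of OST4 fell to 0.30 under quantile scaling. All of these differences use the control sub-polysomal array. The 117 genes under 300 bases, the length class of OST4, had a median change of ratio of 0.40 and an upper quartile of 0.75. Of them 25.6% were 2-fold lower with DTT in sub-polysomal RNA, where 11.1% of all genes were.

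OST3 and OST6, whose products take the same place in the complex, had like ratios in control cells (0.70 and 0.72) and unlike ones with DTT (0.70 and -0.12). The likeness in control cells was less close under quantile scaling (0.37 and 0.70) and loess scaling (0.29 and 0.57). With DTT the ratios were then 0.39 and -0.30 (quantile) and 0.34 and -0.28 (loess). As reported the gap between them, OST6 minus OST3, was 0.03 in control and -0.82 in treated cells. The former uses the array that stood apart and the latter does not. In terms of the DTT effect the gap was 1.00 in sub-polysomal RNA (2.00-fold) and 0.16 in polysomal RNA. More OST6 signal with DTT was thus found mainly in the sub-polysomal fraction. With 1 probe set for each gene and 1 array for each group, this gap has no replicate check.

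The steps before and after the transfer were read in 7 lists for comparison. Beside each count stand the shares of all genes. In sub-polysomal RNA 5.68% of all genes were 2-fold higher with DTT and 11.1% lower. In polysomal RNA 4.33% were higher and 7.04% lower. ER chaperones and their oxidase, the textbook targets of the unfolded protein response, had median DTT effects of 1.19 (sub-polysomal) and 1.76 (polysomal), with 5 and 7 of 9 genes 2-fold higher. The nucleotide exchange factor gene SIL1 stood at 2.18 and 2.60, and the oxidase gene ERO1 at 1.19 and 2.50. FPR2 (2.29 and 1.84), LHS1 (1.72 and 1.84) and EUG1 (1.53 and 1.76) also passed in both fractions, and JEM1 (1.69) and SCJ1 (1.13) in polysomal RNA. KAR2 (0.92 and 0.76) and PDI1 (0.64 and 0.46) stayed under 2-fold in both fractions. HAC1, which 5 probe sets read, stood at 1.33 and 2.60, and dropped out in the setting restricted by probe set type.

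The translocon list joins the channel beside which oligosaccharyltransferase works with a complex that binds it. SEC61, SSS1, SBH1, SSH1 and SBH2 encode channel subunits, and SEC62, SEC63, SEC66 and SEC72 encode the complex. Over these 9 genes the medians were 0.60 and 0.81 in the same order, and 2 and 4 genes were 2-fold higher. These were SBH1 (1.46 and 1.04) and SEC72 (1.11 and 1.21) in both fractions, with SEC66 (1.27) and SEC63 (1.08) in polysomal RNA. Among them only SBH1 encodes a channel subunit. SSS1 stood at 0.24 and 0.60, SSH1 at 0.73 and 0.06, and SEC62 at 0.86 and 0.81. SEC66 also had the largest change of ratio in the list, 1.09. The DTT effect lay below 0 in both fractions for SEC61 (-0.27 and -0.04) and SBH2 (-0.26 and -0.04), and above 0 for the other 7 genes. Of the signal peptidase genes 3 of 4 were measured, with medians of 0.34 and 0.79, and the catalytic subunit gene SEC11 passed 2-fold in both (1.23 and 1.05).

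Enzymes that build the lipid-linked sugar chain had medians of 0.10 and 0.33 over 16 measured genes of 21, beside the subunits' 0.14 and 0.17. The former was just below 0 with a floor at the 60th percentile. In polysomal RNA 2 were 2-fold higher, NUS1 of dolichol synthesis (1.76) and the mannosyltransferase gene ALG12 (1.03), and 0 were lower. In sub-polysomal RNA 0 were higher and 1 was lower, ALG11 (-1.18), which adds mannose on the cytosolic face. With 11.1% of all genes lower there, 1 of 16 does not set this list apart. ALG12 had a change of ratio of 1.03. Sugar nucleotide supply had medians of 0.52 and 0.28 over 8 genes, with GFA1 of amino sugar synthesis at 1.63 and 1.04 and the mannose phosphate isomerase gene PMI40 at 1.33 in sub-polysomal RNA. UGP1 (-0.89 and -0.65) and PSA1 (-0.25 and -0.11) lay below 0 in both fractions. Above 0 were 5 of the 8 in sub-polysomal and 6 in polysomal RNA.

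After the transfer, 5 of 8 genes that trim or read the glycan were measured, with medians of 0.24 and -0.04, the latter of a sign that turned in 3 settings. Glucosidase I, encoded by CWH41, was the gene past 2-fold (1.13 in sub-polysomal RNA, 0.29 in polysomal RNA). Of 11 genes for the outer mannose chain added in the Golgi 10 were measured, with medians of 0.23 and -0.13, the latter positive with no floor and when centred on hybridisation controls. VAN1 stood at 1.20 in sub-polysomal RNA, and MNN4 at 1.65 in polysomal RNA with a change of ratio of 1.07. No difference between lists was tested.

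**Figure D4:**
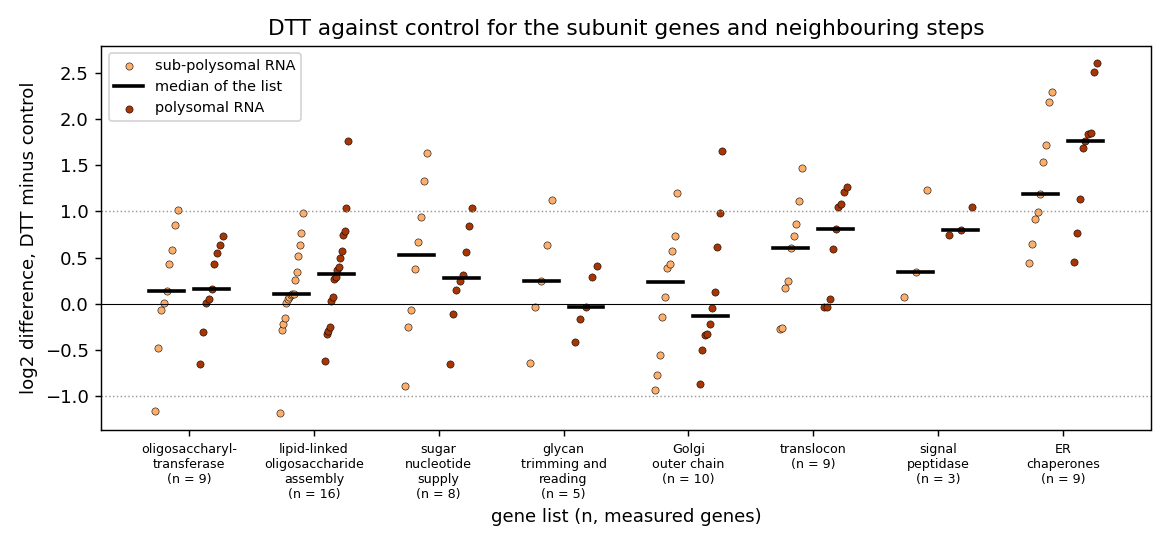
Log2 difference of DTT minus control for each measured gene of oligosaccharyltransferase and of 7 lists of neighbouring steps, in sub-polysomal RNA (light) and polysomal RNA (dark), 1 point per gene and a black line at each median; dotted lines mark 2-fold. The subunits' medians of 0.14 and 0.17 lie near those of lipid-linked oligosaccharide assembly (0.10 and 0.33) and below those of the ER chaperones (1.19 and 1.76).

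The median profile of the 9 genes over the 4 arrays, each gene set to a mean of 0, was -0.23 in control sub-polysomal, 0.16 in control polysomal, -0.17 in DTT sub-polysomal and 0.26 in DTT polysomal RNA. SWP1 lay nearest to it, at a Euclidean distance of 0.10, followed by OST3 at 0.30. OST4 lay farthest, at 2.35, with 99.2% of all measured genes nearer to the profile. The 5 other genes nearest to it over the 4 arrays were DET1 (distance 0.025), the GPI transamidase gene GAA1 (0.032), the kinase gene TOR2 (0.032), RPL9B (0.033), a ribosomal protein gene with a near-identical copy that may share its signal, and the glucosyltransferase gene ALG8 (0.044). Over these 4 arrays 6.63% of all measured genes lay nearer to the profile than OST3 did.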

How the data were processed

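The deposited table holds 1 linear intensity per probe set and array, which the authors had scaled so that the mean after trimming 2% of probe sets from each end is about 100 on every array, as the values show. The step that turned probes into probe sets is not stated in the labels or headers. Run sheets show 1 chip type and a separate wash module for each array, so module and group cannot be told apart. All columns belong to a sample.

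Of the probe sets, 6504 name 1 gene, and all were matched by gene ID to assembly R64, used for names and gene lengths. Floors were 28.2, 17.6, 22.6 and 15.9 for sub-polysomal and polysomal control RNA and then the same fractions with DTT, at the 40th percentile. Log2 values were centred on the median of 4720 measured probe sets, controls left out, and averaged per gene. Genes were counted past 2-fold, with no test. The number of arrays limits the precision. Named genes are all 9 subunit genes, list genes past 2-fold in a DTT effect or in the change of ratio, and the 5 nearest profiles, with HAC1, KAR2 and genes of mating type and strain markers as checks. All genes of the translocon and ER chaperone lists are named, and in the sugar nucleotide list genes below 0 in both DTT effects are named as well. The members and lists were chosen with earlier results of these data known. Sequences were not analysed here. Alternatives were the floor, scaling, pseudocount, probe set type and fold limit. Scripts ran in Python 3.11.15 with pandas 2.3.3 and statsmodels 0.14.6, and were tested on simulated data.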

Additional observations from a re-analysis of the deposited data

Results flagged for a closer look

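SWP1, partner of Ost2 and Wbp1, had DTT effects of opposite sign in the fractions, -0.062 in sub-polysomal and 0.048 in polysomal RNA. The difference was not tested, and both values are far below the probe-set SD of 0.45 and 0.41.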

How the results depend on the processing

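With 1 array per group, what limits precision is the number of arrays and, for OST2, a signal near the floor. No paired analysis was possible because each group holds 1 array, and none could be left out. Of 360 values of single subunit genes under 8 alternatives, 334 moved by less than the probe-set SD, 26 by more, and 39 turned sign, 0 of them values past 2-fold as reported. The median DTT effect of the 9 genes stayed above 0 in all 8 (0.07 to 0.38 in sub-polysomal and 0.15 to 0.41 in polysomal RNA). The median ratio of the fractions with DTT, 0.38, was -0.026 under quantile scaling, -0.013 under loess scaling and 0.73 when centred on hybridisation controls. Scalings shifted the all-gene median too, to 0.43 for that ratio and 0.14 for the polysomal DTT effect with those controls. The cause was not tested.

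Counts were 0 or 1 as reported, so they moved easily. With no floor 4 genes were 2-fold higher in polysomal RNA in control cells (16.1% of all genes) and 2 with DTT (9.07%). In sub-polysomal RNA DTT then had 2 higher (11.2% of all genes) and 0 lower (9.92%). A floor at the 60th percentile and a pseudocount of 16 each left 0 genes polysomal with DTT (2.64% and 2.93% of all genes). Each also left 0 higher with DTT in sub-polysomal RNA (4.82% and 4.46%). Without centring 0 were polysomal with DTT (1.45% of all genes). Under quantile scaling 0 were polysomal with DTT (2.57% of all genes) and 0 lower with DTT in sub-polysomal RNA (9.94%). Under loess scaling 0 were polysomal in control cells (4.64% of all genes) or with DTT (2.47%). In sub-polysomal RNA 0 were then higher (7.29%) and 0 lower (6.68%) with DTT. Centred on hybridisation controls, 2 were polysomal in control cells (11.3% of all genes). In DTT-treated cells 3 were higher (15.9%) and 0 lower (1.05%) in polysomal than in sub-polysomal RNA. A higher change of ratio was found for 1 gene (4.72% of all genes). At 1.5-fold, 4 were polysomal in control cells and 3 with DTT, 2 had a higher and 1 a lower change of ratio, 3 were higher with DTT in sub-polysomal RNA, and 2 were higher and 1 lower in polysomal RNA. At 3-fold, 0 were polysomal in either treatment, 0 sub-polysomal with DTT, and 0 higher or lower with DTT. Shares of all genes at 1.5-fold and 3-fold are not given here, so these counts have no background beside them. Without OST4, an alternative chosen after seeing the data, 0 genes were lower in either ratio or with DTT in sub-polysomal RNA. OST4 was the only gene lower there, so this outcome was fixed in advance. Counts of 2-fold higher ER chaperone genes ran from 2 to 8 and 3 to 8 over the floors and scalings, and those of the translocon list from 1 to 3 and 2 to 5, in sub-polysomal and polysomal RNA. A higher floor also takes genes out of the count. EUG1 and JEM1 read 35.1 and 40.2 in control sub-polysomal RNA, under that array's median of 40.5. They were thus not measured with the floor at the 60th percentile. The number of list genes measured in each setting is not given here.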
